A study of Caenorhabditis elegans with 22 samples.

Results

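The comparison set Caenorhabditis elegans mutant for both isp-1(qm150) and ced-4(n1162) against worms mutant for isp-1(qm150) alone. Both groups thus had a defect of the mitochondrial respiratory chain. The comparison used 6 of the 22 arrays of the series, taken by their titles, with 3 arrays of isp-1 ced-4 and 3 arrays of isp-1. Every worm of both groups carried the isp-1(qm150) mutation, and the n1162 allele of ced-4 was the only labelled difference between the groups. The other arrays held nuo-6(qm200) ced-4(n1162), ced-4(n1162), nuo-6(qm200) and wild type treated with 0.1 mM paraquat, with 3 arrays each, and 4 arrays of untreated wild type. nuo-6 encodes a subunit of respiratory complex I, and paraquat makes superoxide in cells. All groups were hermaphrodites in the Bristol N2 background. They came from egg lays of 4 hours, and were picked by hand as young adults. Whether the groups had reached the same point of adult development was not tested. Such a difference cannot be told apart here from an effect of ced-4. RNA was taken from whole worms, so all tissues and the germ line were read together, and each genotype was a germline mutation of the whole animal. According to the labels the replicates are biological, but separate cultures are not mentioned. The p-values thus reflect the spread among these arrays alone, and part of it may be technical.

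isp-1 encodes the Rieske iron-sulfur protein of respiratory complex III, and the qm150 allele is known for slow development, lower oxygen consumption and a long life. CED-4 is the adaptor, related to mammalian Apaf-1, that assembles into the apoptosome and switches on CED-3, a caspase. Upstream the BH3-only protein EGL-1 binds the Bcl-2 family protein CED-9, which frees CED-4 to act. Dying cells are then engulfed by neighbours through the CED-1, CED-6 and CED-7 pathway and the CED-2, CED-5, CED-12 and CED-10 pathway. The same proteins have been linked to the long life of isp-1 and nuo-6 mutants, as a route by which reactive oxygen species from mitochondria change gene expression.

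The values are deposited log2 intensities of probe sets made with GCRMA, and a difference of 1 is a 2-fold change. A gene is called changed here at an adjusted p under 0.05 in limma (Benjamini-Hochberg over 12639 probe sets), and SE is the standard error of the model. The ced-4 transcript bore out the labels. It read 5.53, 5.74 and 5.83 on the isp-1 ced-4 arrays, against 7.33, 7.88 and 7.49 on the isp-1 arrays, a difference of -1.87 (SE 0.18, adjusted p = 9.79e-06). The isp-1 transcript read between 12.98 and 13.23 on all 6 arrays, with a difference of -0.04 (adjusted p = 0.773). That gene carries its mutation in both groups, so its level checks nothing.

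Replicate 1 of each group stood apart from its partners. On the first principal component of the 6 arrays, which held 70.1% of the variance, isp-1 ced-4 replicate 1 lay at -6.37 and replicates 2 and 3 at -64.14 and -69.86, against 53.79, 51.33 and 35.26 for the isp-1 arrays. On the second, with 13.9% of the variance, isp-1 replicate 1 lay at 42.78 and its partners at -17.87 and -31.22. Over all tested probe sets isp-1 replicate 1 had a correlation of 0.993 with nuo-6 replicate 1, and of 0.976 and 0.967 with the other isp-1 arrays. List counts of 4 genes or more are therefore also given without both replicates 1 where that moves them by 1.5 times or more.

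The double mutant differed from isp-1 in many genes. Among 9652 tested genes, 1493 rose and 1742 fell in isp-1 ced-4, which is 15.5% and 18% of them. Falls were more often large: 388 genes rose at least 2-fold (4.02%) and 1009 fell at least 2-fold (10.5%). The median difference of all tested genes was 0.019. The 3 isp-1 ced-4 arrays all lay above the 3 isp-1 arrays for 21.6% of genes and all below for 23.8%. By probe set, 4193 of 12639 were called, which is 33.2%, with 2019 higher (16%) and 2174 lower (17.2%), and 1812 (14.3%) were called and at least 2-fold apart. Centring each array on its own median moved the median difference of all probe sets to 0.228, in place of 0.029, and the split to 3498 higher and 1584 lower (68.8% of the calls higher). A fit of the 6 arrays alone called 2088 probe sets, leaving out isp-1 ced-4 replicate 2 gave 2748, and leaving out both replicates 1 gave 3636.

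In the cell death pathway, the caspase gene ced-3 rose in the double mutant along with ced-9, while ced-4 itself was lower. The transcript of ced-3 read 4.25, 5.09 and 4.96 in isp-1 ced-4, against 2.36, 2.66 and 2.81 in isp-1. Every isp-1 array was below the floor of 3.68 that a probe set had to reach on at least 3 arrays of the series, so the size of the difference, 2.16 (SE 0.30, adjusted p = 0.00014), is uncertain at its lower end. Of the 6 arrays only those of isp-1 ced-4, where ced-3 read high, reached the floor, so this p-value is not support apart from the filter. ced-9 read 6.28, 6.75 and 6.93 in isp-1 ced-4 and 5.13, 5.58 and 6.14 in isp-1, a difference of 1.04 (SE 0.22, adjusted p = 0.00187). The groups did not overlap for either gene. cep-1, the p53-like factor that turns on egl-1 after DNA damage, was higher by 0.62 (adjusted p = 0.00865), with 9.40 to 9.79 in isp-1 ced-4 and 9.03 to 9.04 in isp-1. nuc-1, the lysosomal DNase II that degrades the DNA of engulfed cells, fell in the double mutant. It read 9.51, 9.33 and 10.15 in isp-1 ced-4 and 10.52, 11.31 and 11.17 in isp-1 (difference -1.34, adjusted p = 0.000189), again with no overlap.

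Of the 22 apoptosis genes on the array, 16 were tested, 6 were higher and 2 were lower, and their median difference was 0.24. The share called higher was 37.5%, against 15.5% of all tested genes. The 3 higher members not yet named were the nuclease genes crn-4 and crn-3 and icd-1, whose protein limits apoptosis, with differences of 0.70, 0.41 and 0.24. Their calls were the weakest, with adjusted p of 0.0411, 0.0439 and 0.0358. The number higher was 3 without isp-1 ced-4 replicate 2, without isp-1 ced-4 replicate 3, without isp-1 replicate 1 and without isp-1 replicate 3, and it was 4 without both replicates 1. After cyclic loess 4 were higher and 4 lower, and in the fit of the 6 arrays alone 2 were higher and 2 lower, with ced-9 at an adjusted p of 0.06. The call of icd-1 ended whichever of the 6 arrays was left out, with differences between 0.23 and 0.26. That of crn-3 ended for each array but isp-1 replicate 2, with differences between 0.28 and 0.52. That of crn-4 ended without isp-1 ced-4 replicate 2, isp-1 ced-4 replicate 3, isp-1 replicate 1 and isp-1 replicate 3, with differences between 0.54 and 0.89. The nuclease and mitochondrial factors cps-6, wah-1, crn-1, crn-2 and crn-5 and the genes abl-1, csp-3 and sir-2.1 did not pass the test. The members not tested, because they stayed below the floor, were egl-1, ced-13, csp-1, csp-2, ces-1 and ces-2. None of them read above 2.84 on any of the 6 arrays, so a change in the upstream trigger egl-1 could not be seen.

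**Figure D1:**
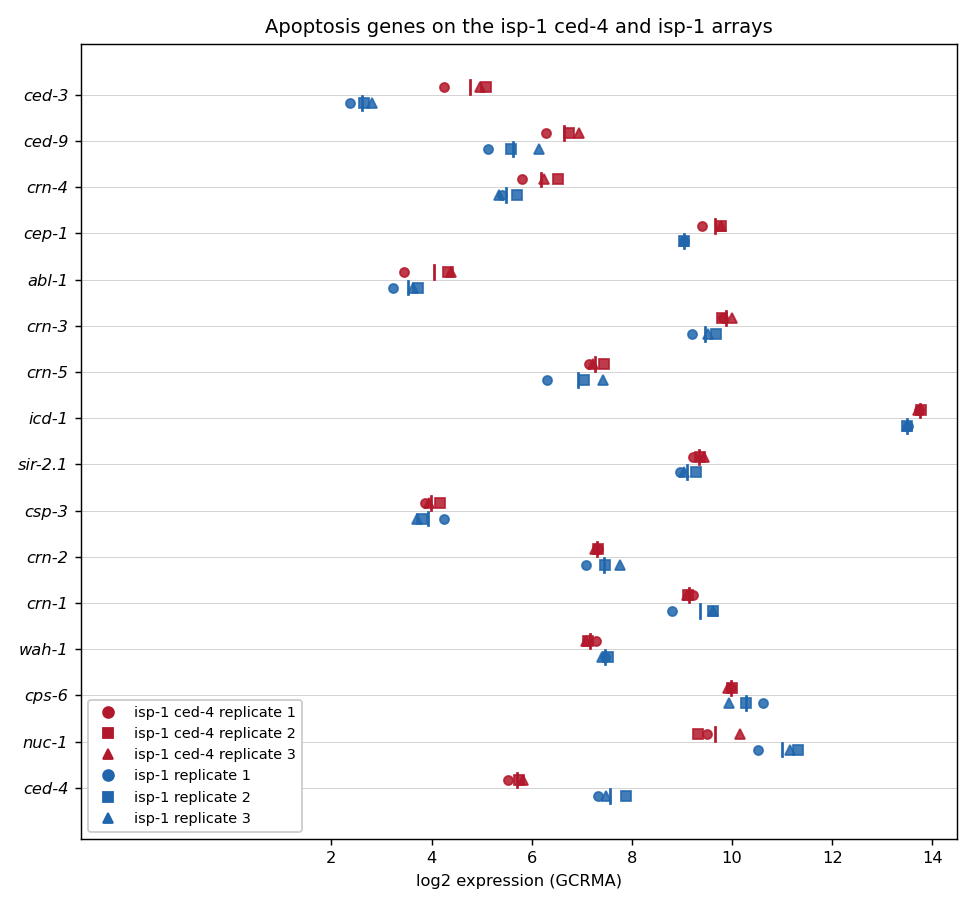
Log2 expression of the 16 tested apoptosis genes on each of the 3 isp-1 ced-4 arrays (red, upper row of each gene) and the 3 isp-1 arrays (blue, lower row), with a bar at the mean of each group. ced-3 and ced-9 lie higher in isp-1 ced-4 and ced-4 and nuc-1 lie lower, with no overlap between the groups.

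Genes that clear dying cells were higher in the double mutant. Of 21 tested engulfment genes 13 rose (61.9%, against 15.5% of all tested genes) and 1 fell, with a median difference of 0.53. ced-10, which encodes the Rac GTPase that drives the engulfing membrane, read 7.94, 8.13 and 7.94 in isp-1 ced-4, against 6.60, 7.03 and 7.14 in isp-1, a difference of 1.08 (SE 0.18, adjusted p = 0.000485). ced-6, an adaptor of the engulfment receptor CED-1, had 9.16, 9.61 and 9.46 in isp-1 ced-4 and 7.94, 8.58 and 8.90 in isp-1, with a difference of 0.94 (adjusted p = 0.00159). All isp-1 ced-4 arrays exceeded all isp-1 arrays for both genes. The phospholipid flippase gene tat-1, which keeps phosphatidylserine on the inner face of the membrane, rose by 0.95 and the ABC transporter gene ced-7 by 0.98. dyn-1, the dynamin of phagosome maturation, rose by 1.12 and was named after its values were seen. The number higher was 6 without isp-1 ced-4 replicate 2, 7 without isp-1 ced-4 replicate 3, 8 without isp-1 replicate 1, and 8 without both replicates 1, and it was 5 in the fit of the 6 arrays alone. The 5 genes named so far kept an adjusted p under 0.05 in each fit that left out a single array. In the fit of the 6 arrays alone ced-6, ced-7 and dyn-1 of these lost their call (adjusted p = 0.0593, 0.0547 and 0.072). Calls of ced-1, ced-2, ced-5 and ced-12, named after their values were seen, were less stable. Each ended without isp-1 ced-4 replicate 2, without isp-1 ced-4 replicate 3 and without isp-1 replicate 1.

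Sperm genes were prominent among the largest falls. Of 39 tested sperm genes 35 fell (89.7%, against 18% of all tested genes) and none rose, with a median difference of -2.33. All 23 genes of the major sperm protein family fell, with a median of -1.44. The mean over the sperm list was 7.31, 5.33 and 4.96 on the isp-1 ced-4 arrays, against 8.31, 8.09 and 7.80 on the isp-1 arrays. Wild type arrays averaged 8.86 ± 0.35 (SD, n = 4), and those of wild type with paraquat 6.38 ± 0.24 (SD, n = 3). Replicates 2 and 3 of isp-1 ced-4 thus lay far below every isp-1 array, while replicate 1 lay closest to isp-1, although the groups did not overlap. Without both replicates 1 there were 33 of 39 sperm genes lower, with a median of -3.04, and all 23 major sperm protein genes lower, with a median of -1.99. The median of the major sperm protein family was -0.89 without isp-1 ced-4 replicate 3, where 18 of its genes were lower, and -2.05 without isp-1 ced-4 replicate 1. In the fit of the 6 arrays alone 10 of the 39 sperm genes and 0 of the 23 major sperm protein genes were called. In whole worms fewer sperm and less RNA per sperm cell cannot be told apart, and the part of germ line content in the other differences was not tested.

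spe-18, which is needed to assemble the major sperm protein during spermatogenesis, read 8.15, 4.28 and 3.88 in isp-1 ced-4, against 10.03, 9.38 and 8.87 in isp-1. Its difference was -3.99 (SE 0.71, adjusted p = 0.000723). The same uneven pattern over the double mutant arrays was seen for spe-11, which encodes a sperm protein needed by the fertilised egg, at 8.27, 4.61 and 3.92 in isp-1 ced-4 and 9.40, 9.20 and 8.79 in isp-1. Genes for the sperm-specific proteins sss-2 and ssp-35, the sperm chromatin protein spch-1 and the GSK3-like kinase gskl-2 fell by 3.77, 3.76, 3.54 and 3.70, with gskl-2 under the floor on isp-1 ced-4 replicates 2 and 3. spe-26, for a kelch-like actin-binding protein of spermatocytes, read 4.13, 3.01 and 2.79 in isp-1 ced-4, against 6.32, 5.96 and 5.63 in isp-1 (difference -2.66, adjusted p = 0.000192). spe-4, for the sperm presenilin, read 4.00, 3.12 and 3.03 in isp-1 ced-4 and 6.26, 5.88 and 5.19 in isp-1. For both genes replicate 1 was again the highest of the double mutant arrays, and replicates 2 and 3 lay under the floor, where the spread cannot be read. Major sperm protein genes are nearly identical, and all 23 were read by probe sets that may bind more than 1 transcript, so they are not separate measurements. msp-142 read 12.595, 10.28 and 9.71 in isp-1 ced-4, against 13.31, 13.14 and 12.89 in isp-1, with replicate 1 of the double mutant again near isp-1. Its difference over all 6 arrays was -2.25 (SE 0.45, adjusted p = 0.00135). Genes from other lists had like values. The histone H3 variant gene of sperm, his-70, fell by 2.96, and cyc-2.2, for a cytochrome c, fell by 2.80, at 9.50, 6.56 and 5.87 in isp-1 ced-4 and 10.36, 10.17 and 9.79 in isp-1.

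**Figure D2:**
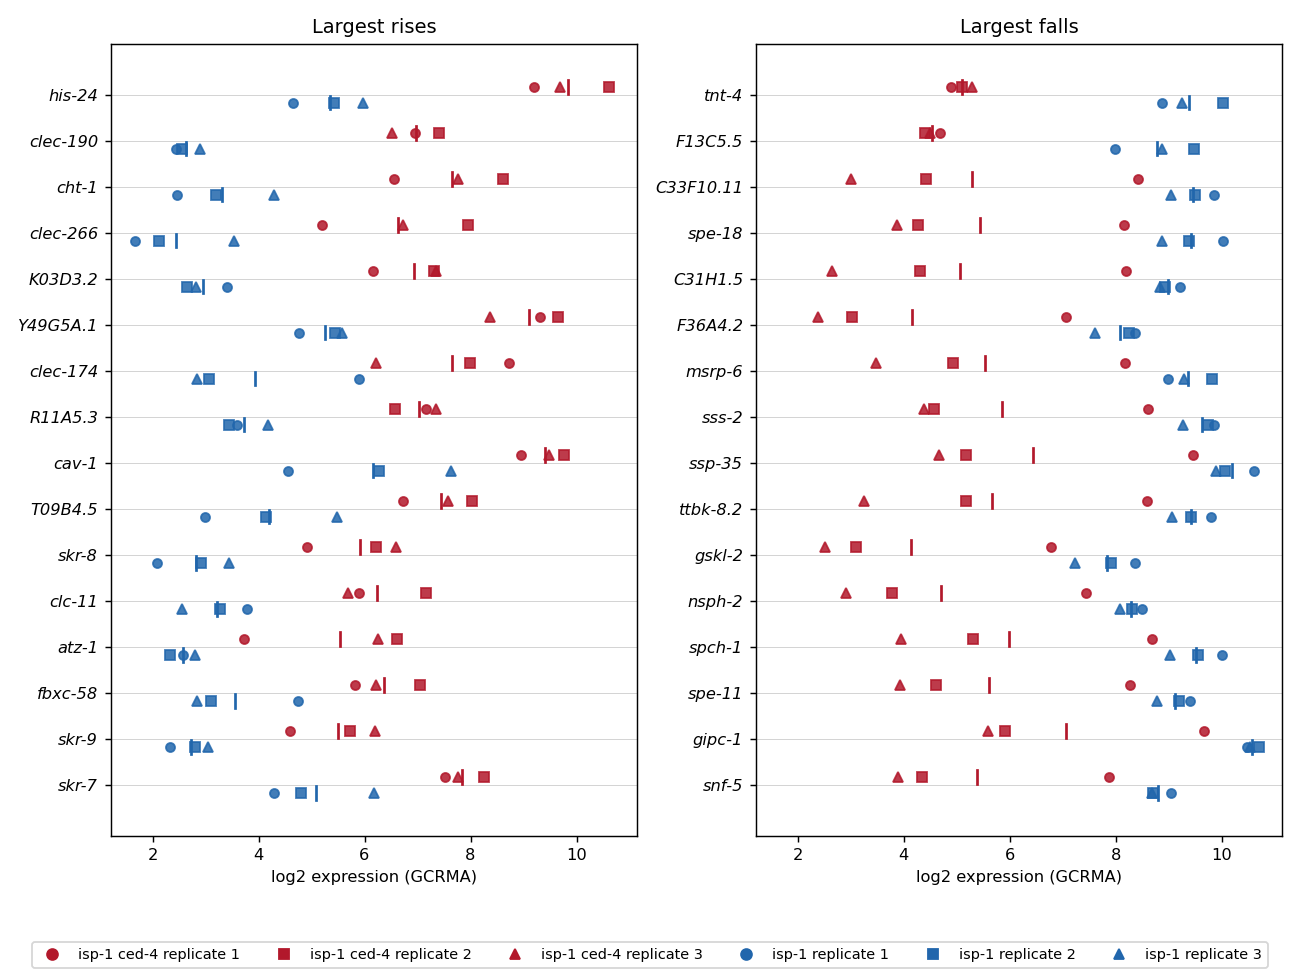
Log2 expression on the 6 arrays for the genes with the largest rises (left) and the largest falls (right) among called genes whose groups do not overlap, with isp-1 ced-4 in red, isp-1 in blue and a bar at each mean. In many of the falls isp-1 ced-4 replicate 1 (circles) lies nearest to the isp-1 arrays, while for tnt-4 and F13C5.5 the 3 isp-1 ced-4 arrays lie together.

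Many genes of oocytes, early embryos and dividing germ cells were higher in the double mutant. Of 37 tested oocyte and early embryo genes 20 rose (54.1%, against 15.5% of all tested genes) and none fell, with a median difference of 0.41. In the list for DNA replication and mitosis, 29 of 54 were higher (53.7%) and none lower, with a median of 0.47. Among 47 germ granule and meiosis genes 16 rose (34%) and none fell, with a median of 0.36. The oocyte list averaged 11.25, 11.48 and 11.51 on the isp-1 ced-4 arrays and 10.64, 10.90 and 11.11 on the isp-1 arrays, with no overlap. Its mean was 10.60 ± 0.235 in wild type (SD, n = 4) and 11.46 ± 0.05 in wild type with paraquat (SD, n = 3). The largest rise was that of cav-1, for the caveolin of the germ line and embryo, at 8.94, 9.77 and 9.48 in isp-1 ced-4 and 4.56, 6.27 and 7.63 in isp-1. Its difference of 3.24 (SE 0.55, adjusted p = 0.000536) came with a wide spread among the isp-1 arrays. mex-1, a maternal zinc finger gene of the early embryo, was steadier, at 11.37, 11.76 and 11.72 in isp-1 ced-4 and 9.85, 9.84 and 10.54 in isp-1, a difference of 1.54 (SE 0.17, adjusted p = 3.55e-05). skn-1, which specifies embryonic fates and also controls oxidative stress genes, rose by 1.29, and car-1, for an RNA-binding protein of germ line granules, rose by 0.73. The maternal genes spn-4 and oma-1, named after their values were seen, did not pass the test, with differences of 0.00 and -0.28. In the cell cycle list cya-1 (cyclin A) rose by 1.57, orc-2 (an origin recognition subunit) by 1.08, hcp-1 (a kinetochore protein) by 0.95 and knl-1 (the kinetochore scaffold) by 0.74. In the germ line list gld-3, for a regulator of the entry into meiosis, rose by 1.17, glh-3, for a germ granule helicase, by 1.15, and prg-1, for the Piwi protein of the piRNA pathway, by 0.62. There were 13 oocyte genes higher without isp-1 ced-4 replicate 3 and 17 without both replicates 1. There were 19 genes of DNA replication and mitosis higher without isp-1 replicate 1. In the fit of the 6 arrays alone the numbers higher were 9 for oocytes and early embryos, 11 for DNA replication and mitosis and 7 for germ granules and meiosis.

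**Figure D3:**
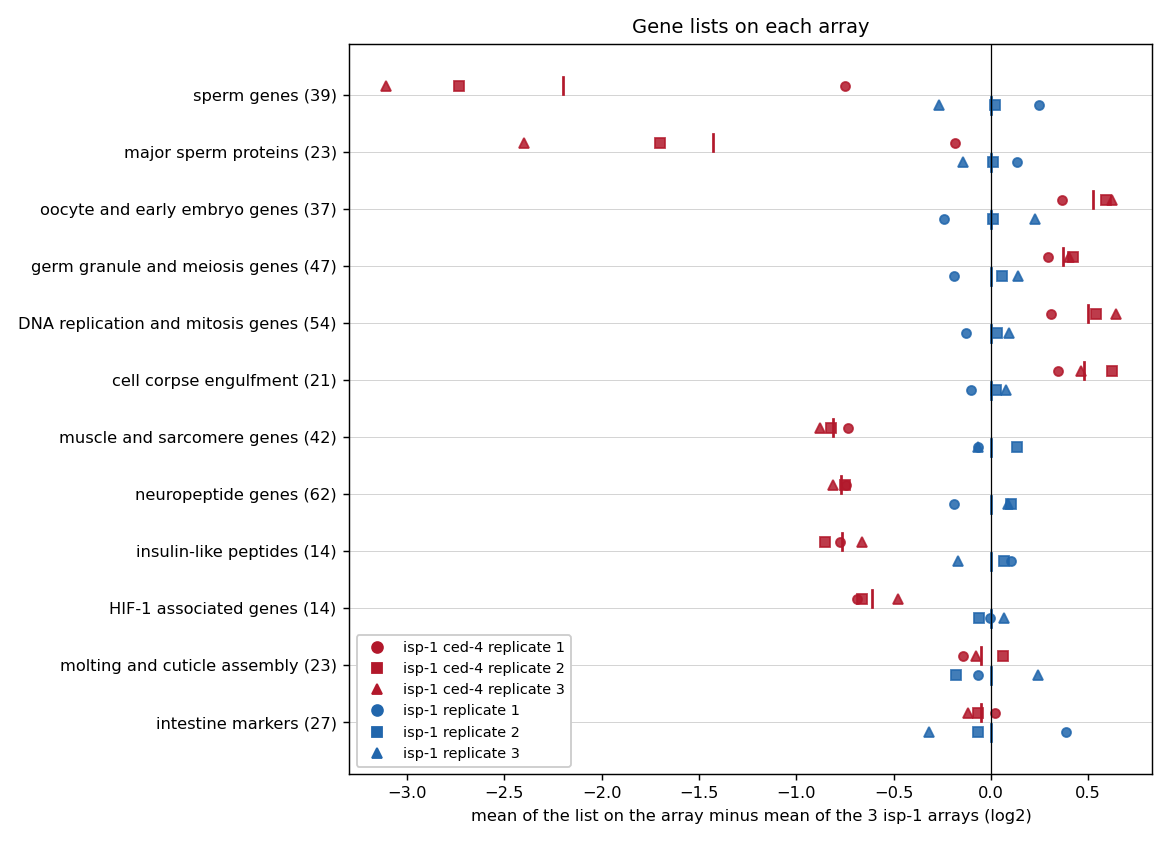
Mean of each gene list on each array, as a log2 difference from the mean of the 3 isp-1 arrays, with isp-1 ced-4 in red (upper row), isp-1 in blue (lower row), a bar at the mean of each group and the number of tested genes in brackets. The sperm lists spread over the isp-1 ced-4 arrays, whereas the muscle, neuropeptide and insulin-like lists lie low on all 3.

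Of 42 tested genes of muscle and the sarcomere 29 fell (69%, against 18% of all tested genes) and 2 rose, with a median difference of -0.57. The list averaged 9.43, 9.34 and 9.29 on the isp-1 ced-4 arrays, against 10.10, 10.30 and 10.10 on the isp-1 arrays, so the 3 double mutant arrays lay close together. tnt-4, the troponin T gene of pharyngeal muscle, had the largest fall of any gene with a symbol, at 4.90, 5.09 and 5.29 in isp-1 ced-4 and 8.88, 10.03 and 9.25 in isp-1 (difference -4.29, SE 0.67, adjusted p = 0.000318). The pharyngeal myosin heavy chain gene myo-1 read 6.13, 6.33 and 6.66 in isp-1 ced-4, against 9.27, 10.32 and 9.74 in isp-1, a difference of -3.40 (SE 0.51, adjusted p = 0.000249). tnc-2, the troponin C gene of the pharynx, had 5.39, 4.96 and 5.21 in isp-1 ced-4 and 7.39, 8.49 and 8.15 in isp-1. For all 3 genes the groups lay more than 1 unit apart. The pharyngeal myosin gene myo-2, named after its values were seen, fell by 2.80, and the troponin I gene tni-4 fell by 2.32.

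The body wall myosins unc-54 and myo-3, also named after their values were seen, differed by -0.62 and -0.81 (adjusted p = 0.00303 and 0.00523). unc-54 read 11.65, 11.60 and 11.60 in isp-1 ced-4 and 12.27, 12.25 and 12.19 in isp-1, a small difference with little spread. mup-2, the troponin T gene of body wall muscle, fell by 0.89, at 11.36, 11.03 and 10.95 in isp-1 ced-4 and 11.89, 12.25 and 11.87 in isp-1. Members without a called fall included the paramyosin gene unc-15, the actin genes act-3 and act-4 and the myosin light chain genes mlc-1 and mlc-2. Of the muscle genes, 28 were read by probe sets that may bind more than 1 transcript. Without both replicates 1, 25 of the 42 fell, with a median of -0.60, with median centring 17 fell, with a median of -0.37, and in the fit of the 6 arrays alone 18 fell. The 2 risers were unc-60 (an actin-depolymerising factor, 0.55) and pat-3 (the beta integrin, 0.66).

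**Figure D4:**
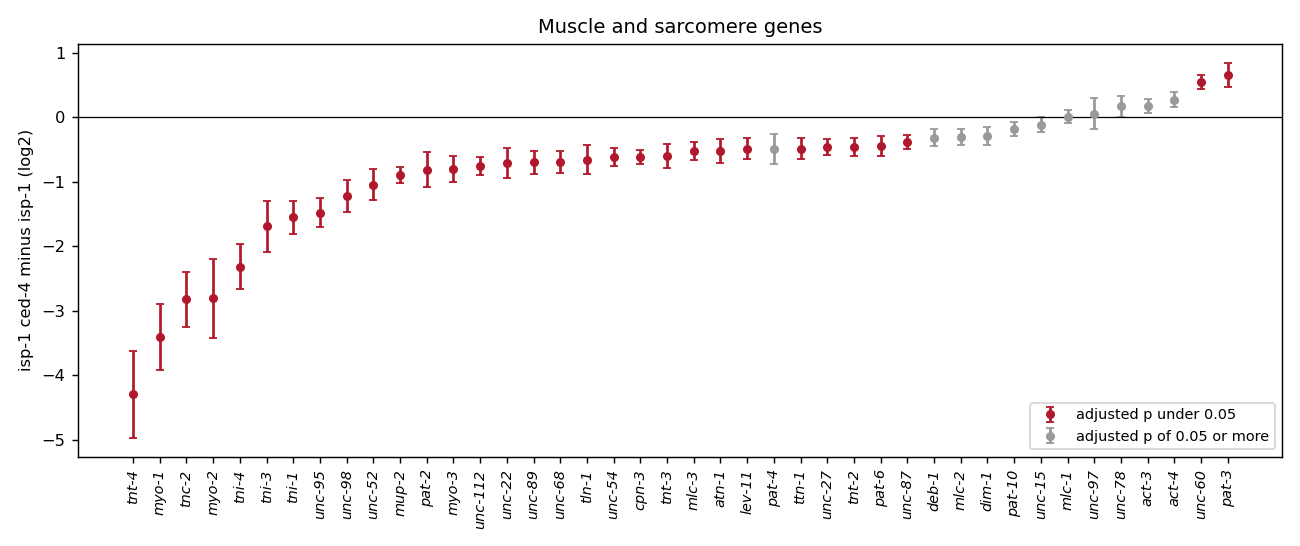
Difference of isp-1 ced-4 minus isp-1 (log2, from the model, bars 1 SE either way) for the tested genes of muscle and the sarcomere, in order of size. Genes with an adjusted p under 0.05 are red, and the pharyngeal genes tnt-4, myo-1, tnc-2, myo-2 and tni-4 lie at the far left between -4.29 and -2.32.

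Of 62 tested neuropeptide genes 35 fell (56.5%, against 18% of all tested genes) and 3 rose, with a median difference of -0.73. The list averaged 6.20, 6.19 and 6.13 on the isp-1 ced-4 arrays, against 6.75, 7.05 and 7.03 on the isp-1 arrays. nlp-16 read 3.16, 3.56 and 4.03 in isp-1 ced-4 and 6.06, 6.32 and 5.91 in isp-1 (difference -2.51, SE 0.27, adjusted p = 3.16e-05). The FMRFamide-like gene flp-11, known for the neuron that brings on sleep, was at 5.38, 5.63 and 5.85 in isp-1 ced-4 and 7.63, 8.27 and 7.62 in isp-1, and was named after its values were seen. Both genes lay lower on every isp-1 ced-4 array by a wide margin. nlp-1 fell by 1.68, nlp-80 by 1.55, flp-5 by 1.11 and flp-1, also named after its values were seen, by 1.86. Without both replicates 1 there were 34 neuropeptide genes lower, with a median of -0.94, and in the fit of the 6 arrays alone 30 were lower.

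Of 55 genes of synapses and transmitters on the array 22 reached the floor and were tested, 6 fell (27.3%, against 18% of all tested genes) and 1 rose, with a median of -0.25. unc-49, for a GABA receptor, fell by 1.25 and mec-12, for the alpha-tubulin of touch neurons, by 0.90, while tdc-1, for the tyrosine decarboxylase that makes tyramine, rose by 0.63. The number lower was 3 without isp-1 ced-4 replicate 1, without isp-1 ced-4 replicate 2, without isp-1 ced-4 replicate 3 and without isp-1 replicate 2.

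Of 14 tested insulin-like peptide genes 9 fell (64.3%, against 18% of all tested genes) and none rose, with a median of -0.72, and 5 fell in the fit of the 6 arrays alone. Only 8 of the 14 reached the floor on at least 3 of the 6 arrays, and 6 of those fell. ins-30 read 3.98, 4.38 and 4.21 in isp-1 ced-4 and 6.01, 6.57 and 5.91 in isp-1 (difference -1.97, SE 0.27, adjusted p = 0.000131). ins-6, for an agonist of the receptor DAF-2, read 2.46, 2.27 and 2.71 in isp-1 ced-4, below the floor, and 3.88, 4.05 and 4.63 in isp-1. ins-33 and ins-26 fell by 1.91 and 1.06, also to readings under the floor. The isp-1 arrays were higher than the isp-1 ced-4 arrays without overlap for all 4. In the signalling core downstream 6 of 14 genes rose (42.9%, against 15.5% of all tested genes) and none fell, with a median of 0.32. The number was 4 without both replicates 1, and 2 in the fit of the 6 arrays alone. The kinase genes pdk-1 and akt-1 rose by 1.33 and 0.77, smk-1, for a phosphatase subunit that acts with the factor DAF-16, by 0.65, and hcf-1, for a nuclear repressor of DAF-16, by 1.03. In the fit of the 6 arrays alone the adjusted p was 0.0585 for pdk-1 and 0.0547 for akt-1. daf-16 itself, named after its values were seen, differed by 0.18 (adjusted p = 0.541).

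Several genes linked to the hypoxia factor HIF-1, which isp-1 worms are known to activate, were lower in the double mutant. Of 14 tested genes associated with HIF-1, 7 fell (50%, against 18% of all tested genes) and none rose, with a median of -0.70. F22B5.4, a known HIF-1 target, read 5.20, 4.58 and 3.77 in isp-1 ced-4, against 6.45, 7.93 and 7.78 in isp-1, a difference of -2.88 (SE 0.32, adjusted p = 3.55e-05). Wild type averaged 5.28 for this gene. nhr-57, a nuclear receptor gene used as a HIF-1 reporter, read 4.97, 4.95 and 4.95 in isp-1 ced-4 and 6.68, 5.99 and 6.53 in isp-1, with a wild type mean of 3.91. For both genes every isp-1 ced-4 array lay below every isp-1 array. cysl-2 and sqrd-1, which act in cyanide and sulfide handling and were named after their values were seen, fell by 2.40 and 1.37, the carbonic anhydrase gene cah-4 by 1.08 and cysl-1 by 0.87. The list spanned -2.88 to 2.03, and the gene at 2.03 was not called. Over the list isp-1 ced-4 stood at a median of 0.54 above wild type, and isp-1 at 0.79, differences that share the wild type arrays. The ced-4 mutation also had a list median below 0 in nuo-6 (-0.50) and in wild type (-0.30). Of the 14 genes, 3 had an effect called lower in isp-1 than in wild type and 0 higher. Of all tested genes 10.6% and 7.76% were so called. Against nuo-6 3 were lower and 3 higher, near the 18.3% and 18.8% of all tested genes.

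sod-3, the mitochondrial manganese superoxide dismutase gene that isp-1 worms raise strongly, read 6.74, 6.84 and 7.79 in isp-1 ced-4 and 8.12, 8.30 and 8.14 in isp-1. The wild type mean was 3.60. The difference between the mutants was -1.06 (SE 0.31, adjusted p = 0.0131), and the double mutant stayed above wild type by 3.53, against 4.59 for isp-1. The call ended without isp-1 ced-4 replicate 1 (-0.87, adjusted p = 0.0537), without isp-1 ced-4 replicate 2 (-0.92, adjusted p = 0.0651) and without both replicates 1 (-0.90, adjusted p = 0.0822). In the fit of the 6 arrays alone the call of sod-3 also ended (adjusted p = 0.0542). Its constitutive relative sod-2, named after its values were seen, differed by -0.16 (adjusted p = 0.317). Of 22 tested genes that detoxify superoxide and peroxide 1 rose (4.55%) and 3 fell (13.6%), shares below those of all tested genes, with a median of -0.03. The riser was trxr-1, the thioredoxin reductase gene (1.08, adjusted p = 0.00181), and gpx-5, a glutathione peroxidase gene, fell by 1.32. gcs-1, the rate-limiting enzyme gene of glutathione synthesis and a SKN-1 target, rose to 9.70, 10.19 and 9.88 in isp-1 ced-4, against 8.30, 8.53 and 8.91 in isp-1 (difference 1.34, SE 0.24, adjusted p = 0.000848). Of 27 glutathione S-transferase genes 8 fell (29.6%, against 18% of all tested genes) and 2 rose, with a median of -0.33. Only 5 fell without both replicates 1 and in the fit of the 6 arrays alone. gst-41, gst-24 and gst-28 fell by 3.01, 1.88 and 1.64, with gst-41 under the floor on every isp-1 ced-4 array.

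Genes of protein folding moved in both directions. hsp-60, the chaperonin gene of the mitochondrial matrix, read 9.32, 8.89 and 8.70 in isp-1 ced-4 and 10.81, 10.36 and 10.04 in isp-1, a difference of -1.43 (SE 0.24, adjusted p = 0.000453). It was the only 1 of 22 tested mitochondrial chaperone and protease genes to fall, and 1 rose, with a median of 0.05. Each share was 4.55%, below the 18% and 15.5% of all tested genes. hsp-4, the BiP gene of the endoplasmic reticulum, read 11.33, 11.40 and 11.06 in isp-1 ced-4 and between 10.17 and 10.26 on the isp-1 arrays (difference 1.05, SE 0.13, adjusted p = 6.18e-05). Among 16 tested genes of heat shock proteins 5 rose (31.2%) and 3 fell (18.8%), against 15.5% and 18% of all tested genes. Of these, hsp-90 was higher by 0.48 and the small heat shock gene hsp-12.2 lower (difference -2.3). The single riser of the mitochondrial list was hsp-6, with 0.44, and its call (adjusted p = 0.0478) ended without isp-1 ced-4 replicate 2, isp-1 ced-4 replicate 3, isp-1 replicate 1 or isp-1 replicate 2. Its difference ran between 0.38 and 0.57 as single arrays were left out.

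Genes of lipid and sugar metabolism changed in small numbers. Of 20 tested desaturase and elongase genes 6 fell (30%, against 18% of all tested genes) and 2 rose, with a median of -0.34. Only 4 fell without both replicates 1 and in the fit of the 6 arrays alone. fat-7, a stearoyl-CoA desaturase gene, read 5.01, 4.95 and 5.21 in isp-1 ced-4 and 7.64, 7.37 and 7.03 in isp-1, against a wild type mean of 10.09 (difference between the mutants -2.29, SE 0.55, adjusted p = 0.00426). The double mutant was thus further from wild type than isp-1 was, while the delta-6 desaturase gene fat-3 fell by 0.86 and the fatty acid elongase gene elo-4 by 1.47, to readings under the floor. pck-1, the gluconeogenic PEP carboxykinase gene, fell by 1.00 and the trehalase gene tre-1 rose by 0.60. Most respiratory chain genes changed little in size. The exception was cyc-2.2, in the list of complexes III and IV and ATP synthase, which fell by 2.80 with the uneven pattern described for the sperm genes. Of 35 genes of complexes III and IV and ATP synthase 11 fell (31.4%, against 18% of all tested genes) and none rose, with a median of -0.13. The genes ucr-2.1 and ucr-2.2, for core subunits of complex III, fell by 0.78 and 0.51. There were 5 lower in that list without isp-1 ced-4 replicate 2, 5 without isp-1 ced-4 replicate 3, 6 without isp-1 replicate 1, 6 without both replicates 1 and 4 in the fit of the 6 arrays alone. Of 32 complex I genes 7 fell and 1 rose, with a median of -0.17. The share that fell, 21.9%, was near the 18% of all tested genes, and 4 fell without isp-1 ced-4 replicate 2, 3 without isp-1 ced-4 replicate 3, 1 without isp-1 replicate 1, 3 without isp-1 replicate 2, 1 without both replicates 1 and 0 in the fit of the 6 arrays alone. With median centring the medians of these lists turned to 0.07 and 0.03, with 2 and 0 genes lower.

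Of 27 tested autophagy genes 9 rose (33.3%, against 15.5% of all tested genes) and none fell, with a median of 0.37. atg-9, for the membrane protein that seeds autophagosomes, read 6.0, 5.93 and 5.43 in isp-1 ced-4 and 4.32, 3.93 and 4.38 in isp-1 (difference 1.58, SE 0.26, adjusted p = 0.000493). epg-2, for a nematode adaptor that links cargo to autophagosomes, read 4.14, 6.60 and 6.14 in isp-1 ced-4 and 2.87, 3.08 and 3.12 in isp-1, where every array was under the floor, with isp-1 ced-4 replicate 1 again nearest to isp-1. atg-10 and atg-18 rose by 1.17 and 0.77. The number higher was 5 without isp-1 ced-4 replicate 3, 6 without isp-1 replicate 2 and 6 in the fit of the 6 arrays alone.

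The largest rises came from other families. his-24, a linker histone H1 gene, read 9.20, 10.61 and 9.70 in isp-1 ced-4, against 4.64, 5.42 and 5.98 in isp-1 (difference 4.49, SE 0.45, adjusted p = 1.38e-05). clec-190, a C-type lectin gene, read 6.95, 7.41 and 6.53 in isp-1 ced-4 and 2.44, 2.56 and 2.90 in isp-1 (difference 4.33, SE 0.20, adjusted p = 3.66e-10). cht-1, a chitinase gene, had 6.55, 8.62 and 7.77 in isp-1 ced-4 and 2.46, 3.19 and 4.30 in isp-1 (difference 4.33). The groups did not overlap for these genes. The lectin genes clec-266 and clec-174 rose by 4.19 and 3.71. All isp-1 readings of clec-190 and clec-266 were under the floor, as were those on 2 of the 3 isp-1 arrays for cht-1 and clec-174, so the sizes of these rises are uncertain. The lectin family as a whole went both ways, with a median of 0.07. Of 63 tested genes 16 were higher (25.4%, against 15.5% of all tested genes) and 12 lower (19%, near the 18% of all). In the fit of the 6 arrays alone 6 were higher and 6 lower. The array held 220 lectin genes, most of them below the floor. The related Skp1-like genes of ubiquitin ligases skr-8, skr-9 and skr-7 rose by 3.09, 2.78 and 2.76, of which skr-8 and skr-9 were read by probe sets that may bind more than 1 transcript. Of 69 tested F-box genes, whose proteins join the same ligases, 14 rose and 1 fell, with a median of 0.21. The share that rose, 20.3%, was near the 15.5% of all tested genes. fbxc-58 rose by 2.80, and the F-box count was 7 without isp-1 ced-4 replicate 2, 8 without isp-1 ced-4 replicate 3, 9 without isp-1 replicate 1 and 5 in the fit of the 6 arrays alone. The claudin-like gene clc-11 rose by 3.03 and the gene atz-1 by 2.96. Among genes with only a sequence name, K03D3.2, Y49G5A.1, R11A5.3 and T09B4.5 rose most, by 3.98, 3.85, 3.29 and 3.24, and the sizes for skr-8, skr-9, atz-1 and K03D3.2 are uncertain, since every isp-1 array was under the floor. F13C5.5 fell by 4.25, at 4.69, 4.40 and 4.50 in isp-1 ced-4 and 7.98, 9.47 and 8.88 in isp-1.

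The series also holds the same ced-4 allele in the nuo-6 background and in the wild type background, and its effect in isp-1 could be set against each without shared arrays. The effect in isp-1 differed from that in wild type for 1774 genes (18.4%), of which 749 were higher (7.76%) and 1025 lower (10.6%), and from that in nuo-6 for 3575 genes (37%), of which 1811 were higher (18.8%) and 1764 lower (18.3%). By probe set the shares were 18.7% and 37.7%. ced-4 itself fell by 1.87 in the isp-1 background, by 1.89 in the wild type background and by 2.50 in the nuo-6 background. The difference of effects was 0.03 (SE 0.24, adjusted p = 0.951) against wild type and 0.63 (SE 0.25, adjusted p = 0.053) against nuo-6. The difference from nuo-6 passed the test with median centring (0.90, adjusted p = 0.0114), without isp-1 ced-4 replicate 1 (0.72, adjusted p = 0.0389) and without isp-1 replicate 2 (0.79, adjusted p = 0.023).

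Molting and cuticle genes were high on the ced-4 and nuo-6 ced-4 arrays. In the isp-1 background 2 of 23 tested genes of molting and cuticle assembly rose (8.7%) and 3 fell (13%), with a median of -0.06. Both shares were below the 15.5% and 18% of all tested genes. The 23 genes averaged 3.96 ± 0.10 in isp-1 ced-4 and 4.01 ± 0.22 in isp-1 (SD, n = 3 each), 6.05 ± 0.04 in nuo-6 ced-4 and 3.86 ± 0.06 in nuo-6 (n = 3 each), and 6.26 ± 0.11 in ced-4 (n = 3) and 3.98 ± 0.22 in wild type (n = 4). Of the 23 genes 14 did not reach the floor on 3 of the 6 isp-1 ced-4 and isp-1 arrays and were tested because of high readings elsewhere, so a count over all 23 would favour a difference between backgrounds. Among the other 9, chosen by the 6 arrays alone, the median was -0.18 in the isp-1 background, 0.59 in the nuo-6 background and 0.54 in the wild type background. The difference of effects was called lower in isp-1 for 4 of these 9 against wild type and for 7 against nuo-6, where 8.7% and 14.8% of all genes so chosen were called lower.

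The same choice left 15 of 20 body shape collagen genes, 18 of 34 hedgehog-related and patched-related genes and 86 of 99 other cuticle collagen genes. The difference was called lower for 10 of the 15 body shape collagen genes against wild type and for 12 against nuo-6, for 11 and 13 of the 18 hedgehog-related genes, and for 37 and 59 of the 86 collagen genes. Within the isp-1 background, 30 of these 86 collagen genes, 4 of the 15 body shape collagen genes and 8 of the 18 hedgehog-related genes fell. Over all tested genes of the lists, 31 of the 99 collagen genes fell (31.3%) and 1 rose (median -0.41). For body shape collagens 4 of 20 fell (20%) and 1 rose (median -0.25), and 9 of the 34 hedgehog-related genes fell (26.5%) and 2 rose (median -0.21). Of all tested genes 18% fell, and the body shape share was near that. The collagen count was 20 without isp-1 ced-4 replicate 2 and 18 without isp-1 ced-4 replicate 3, and 7 in the fit of the 6 arrays alone, and the body shape count was 2 without isp-1 ced-4 replicate 2, 2 without isp-1 ced-4 replicate 3, 1 without isp-1 replicate 3 and 2 in that fit. dpy-5, for a protease that processes cuticle collagen, read 5.59, 4.42 and 4.59 in isp-1 ced-4, against 6.03, 5.60 and 9.89 in isp-1, a difference that did not pass the test (-2.3, adjusted p = 0.094). It averaged 12.31 ± 0.08 in nuo-6 ced-4 and 6.60 ± 0.33 in nuo-6, and 12.70 ± 0.03 in ced-4 and 6.27 ± 2.17 in wild type. The spread among isp-1 and wild type arrays was wide for this gene.

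**Figure D5:**
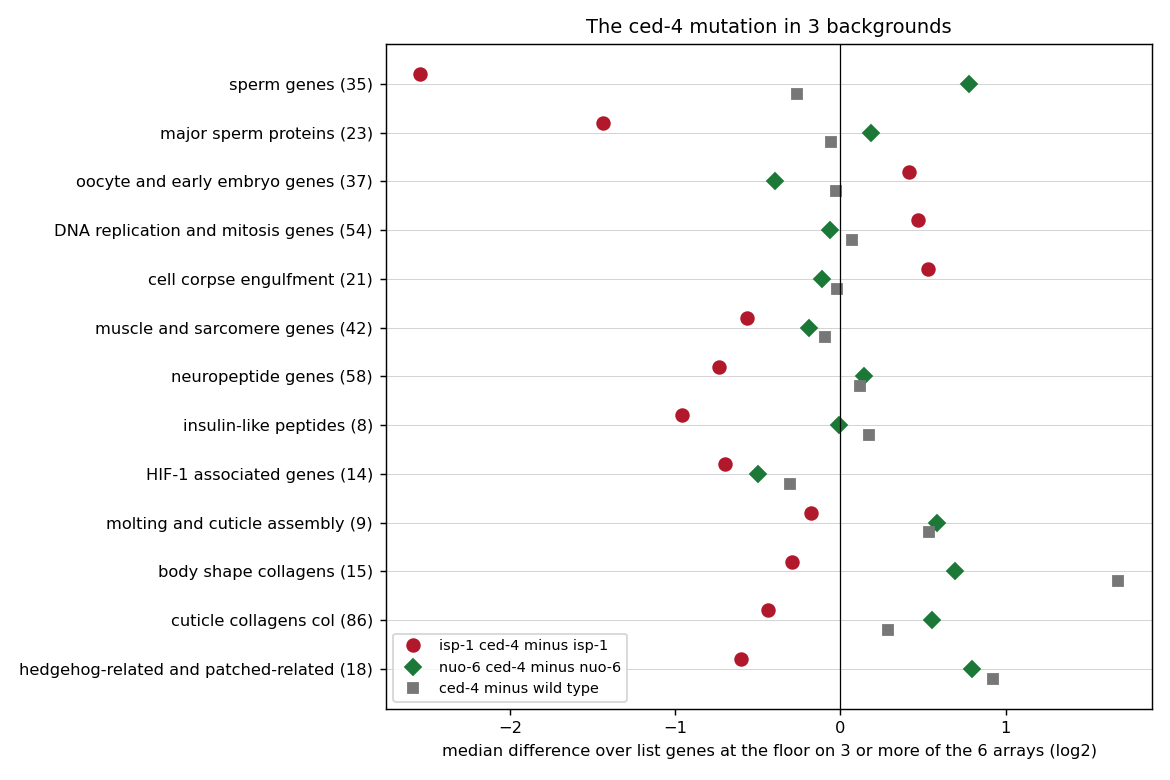
Median log2 difference over the genes of each list that reached the floor on at least 3 of the 6 isp-1 ced-4 and isp-1 arrays (number in brackets) for the ced-4 mutation in isp-1 (red circles), in nuo-6 (green diamonds) and in wild type (grey squares). Sperm, muscle, neuropeptide and insulin-like lists are lowest in the isp-1 background, and the molting, collagen and hedgehog-related lists lie above 0 in the other backgrounds.

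Several of the genes described above also differed between backgrounds. ced-3 had a difference of effects of 2.40 (SE 0.41, adjusted p = 0.000521) against wild type and of 2.85 (SE 0.42, adjusted p = 0.000116) against nuo-6, and it averaged 2.41 ± 0.28 in nuo-6 ced-4 and 3.10 ± 0.43 in nuo-6, and 2.45 ± 0.14 in ced-4 and 2.69 ± 0.53 in wild type. Every one of those group means lies under the floor, and the isp-1 ced-4 arrays lie above it. Of the 6 isp-1 ced-4 and isp-1 arrays, ced-3 reached the floor only in isp-1 ced-4, where it read high. These p-values are therefore not support apart from the filter. mex-1 differed by 1.57 against wild type and 1.41 against nuo-6 (adjusted p = 0.000142 and 0.000413). spe-18 differed by -3.65 and -5.07 (adjusted p = 0.0153 and 0.00104). The call of spe-18 against wild type ended without isp-1 ced-4 replicate 2 (-3.07, adjusted p = 0.0531) and in the fit of the compared groups alone (adjusted p = 0.0726). Of the sperm genes 35 reached the floor on at least 3 of the 6 isp-1 ced-4 and isp-1 arrays. Of these, 30 were called lower against nuo-6 and 22 against wild type. Of all genes so chosen 14.8% and 8.7% were called lower. Over all 39 tested sperm genes the numbers were 34 and 22. The number against wild type was 6 without isp-1 ced-4 replicate 2, 7 without isp-1 ced-4 replicate 3, 11 without isp-1 replicate 1, 13 without isp-1 replicate 2 and 2 in the fit of the compared groups alone. Of 58 neuropeptide genes chosen in the same way, 25 were called lower against nuo-6 and 28 against wild type. Over all 62 tested neuropeptide genes the numbers were 28 and 31. Of these 62, the number against wild type was 16 without isp-1 ced-4 replicate 2 and 20 without isp-1 ced-4 replicate 3. It was 17 without isp-1 replicate 2, 20 without isp-1 replicate 3 and 15 in the fit of the compared groups alone. sod-3 had a difference of -1.31 against wild type and of -1.98 against nuo-6 (adjusted p = 0.0374 and 0.00215), with means of 9.16 ± 0.13 in nuo-6 ced-4 and 8.24 ± 0.74 in nuo-6. Against wild type that call ended without any 1 of the 6 arrays but isp-1 ced-4 replicate 3, with differences between -1.35 and -1.12 and adjusted p between 0.0504 and 0.1. It also ended with median centring (-1.07, adjusted p = 0.0702) and with the replicate number as a block (-1.27, adjusted p = 0.0661). The same held in the fit of the compared groups alone (adjusted p = 0.0519) and without both replicates 1 (-1.15, adjusted p = 0.0971). tnt-4 did not pass either test, with -2.24 (adjusted p = 0.0957) and -2.36 (adjusted p = 0.0581), although against nuo-6 it passed in the fit of the compared groups alone (adjusted p = 0.00509) and after cyclic loess (-2.64, adjusted p = 0.0459). It fell by 2.05 in ced-4 against wild type and by 1.93 between nuo-6 ced-4 and nuo-6. his-24 rose in all 3 backgrounds, by 4.49 in isp-1, by 2.19 in nuo-6 and by 2.84 in wild type.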

How the data were processed

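Whole young adult hermaphrodites were profiled on Affymetrix arrays from biotin-labelled cRNA of a 3' IVT kit. The authors deposited log2 expression values of 22625 probe sets on 22 arrays in 7 groups, and GCRMA is the method named, per the submitters' processing notes. Its version, the log base and a joint normalization of the arrays are all not given in the sources used. The base was read from the range of the deposited values, 0.926 to 15.25. Background correction compresses low values, so differences between low readings are uncertain. Arrays carry no read depth, so precision is limited by their number.

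Control probe sets (77) were left out, and 12639 probe sets that reached the table median of 3.68 on at least 3 arrays were tested. Names came from the platform annotation with updated symbols, and a gene was read by its probe set with 1 symbol and the highest mean, so that 9652 of the 17118 genes present were tested. Of these, 3602 were read by probe sets that may bind more than 1 transcript, among them clec-190, clec-266, clec-174, cht-1, cav-1, spe-18, myo-1, mup-2, cysl-2, hsp-60, hsp-4, skn-1 and ced-10. No genome build is given, so no coordinates are printed. All 7 groups entered 1 means model (lmFit and eBayes of limma 3.58.1, run in R 4.3.3, with tests of either direction), so every difference shares 1 estimate of the spread per probe set. Differences of effects are contrasts of that model. The steps were tested on simulated data.

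Named genes were ced-4 and isp-1, the 12 largest rises and falls among called genes without overlap of the groups, the 4 largest each way among genes that have just a sequence name, up to 4 called members with the smallest p of each of 50 gene lists, all tested apoptosis genes, and the 6 largest differences of effects each way. The comparison and the lists were chosen with earlier results of these data known. Alternatives were 2 other filters, cyclic loess, centring on array medians, a block for the replicate number, a fit of the compared groups alone, limma's trend and robust settings, and omission of single arrays. Leaving out both replicates 1 was added after seeing the data.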

Additional observations from a re-analysis of the deposited data

Results flagged for a closer look

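The effect of ced-4 loss in isp-1 differed from its effect in the other backgrounds, by limma's test of the difference, for the following named genes. Values are the effect in isp-1 minus the effect in the other background, on the log2 scale. Against wild type it was higher for C49G7.12 (5.15), clec-174 (4.18), clec-190 (4.14), clec-223 (4.07), clec-67 (3.81), cht-1 (3.80), ced-3 (2.40) and mex-1 (1.57). It was lower for dpy-5 (-8.73), R12E2.7 (-8.68), H23N18.5 (-8.65), F41F3.3 (-8.53), col-48 (-8.26), col-49 (-7.84), spe-18 (-3.65) and sod-3 (-1.31).

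Against nuo-6 it was higher for catp-3 (5.49), clec-174 (4.89), clec-47 (4.84), F54F7.2 (4.69), cht-1 (4.63), F25D1.5 (4.48), ced-3 (2.85), his-24 (2.3) and mex-1 (1.41). It was lower for Y47D7A.13 (-8.67), H23N18.5 (-8.41), F41F3.3 (-8.02), dpy-5 (-8.01), Y47D7A.15 (-7.96), col-48 (-7.87), spe-18 (-5.07) and sod-3 (-1.98). For clec-67, F54F7.2, F25D1.5, dpy-5, R12E2.7, H23N18.5, col-48, col-49, Y47D7A.13 and Y47D7A.15 the effect in isp-1 itself did not pass the test. C49G7.12, R12E2.7, H23N18.5, col-48 and Y47D7A.13 were under the floor of 3.68 on at least 4 of the 6 isp-1 ced-4 and isp-1 arrays, R12E2.7 on all 6. They reached 3 arrays above it only with arrays of other groups. The sizes of their differences are therefore uncertain, and the tests of these 5 genes are not support apart from the filter. On the 6 arrays ced-3 and clec-190 reached the floor only in isp-1 ced-4, where they read high. The tests of ced-3 and clec-190 are likewise not support apart from the filter.

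Among the wild type arrays 1 lay far from the others for tnt-4, at 6.92, and 1 for myo-1, at 7.84, the lowest of 4 in each case. Chance marks about 1 in 20 such groups, and only a part of the genes was looked at.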

How the results depend on the processing

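The fit of the compared groups alone called 2088 probe sets (904 higher, 1184 lower, 1141 at least 2-fold) in place of 4193 (2019, 2174 and 1812), and 1307 in place of 2362 for the difference from the effect in wild type. For the difference from the effect in nuo-6 that fit called 4743, in place of 4762. It has fewer arrays to estimate the spread, and under it 103 of 300 results for named genes lost their call. The median SD within a group ran from 0.124 (ced-4) to 0.298 (wild type), at 0.192 for isp-1 ced-4 and 0.242 for isp-1. The main model pools the spread of all 7 groups. Whether fewer arrays or unequal spread lowered the counts was not tested. Median centring gave 3498 higher, against 1584 lower, and 3677 for the difference from wild type, while cyclic loess gave 1743 higher and 2346 lower. Leaving out each array gave 2748 to 4289 called, 1198 to 2150 higher and 1371 to 2956 for the difference from wild type. The lowest of each came without isp-1 ced-4 replicate 2, and 1343 higher and 1503 for the difference came without isp-1 ced-4 replicate 3. The cause was not tested. Under the other filters, the trend and robust options and the fit without both replicates 1, these counts stayed within 1.5 times of the main ones. The same replicate numbers were in both groups, and the deviations of same-numbered arrays had correlations of 0.111, -0.07 and 0.158. Those of differently numbered arrays ran from -0.23 to 0.207. With 3 arrays a group these values cannot decide whether the numbers mark paired arrays. With the replicate number as a block 4166 probe sets were called, and the differences of effects passed the test for ced-4 against nuo-6 (adjusted p = 0.0422) and for tnt-4 against wild type (-2.62, adjusted p = 0.0468) and nuo-6 (adjusted p = 0.0445). No named result reversed its direction under any alternative while called. Among the lists, median centring raised the number of genes called higher to 17 for autophagy, 28 for germ granules and meiosis, 27 for F-box genes and 10 for the insulin signalling core, and lowered the falls of the cuticle collagens to 16. Counts of 1 to 3 genes in the rarer direction of a list also moved with single arrays. Filtering on the 6 arrays removed genes that were low in both groups. The counts of differences for the molting, collagen, hedgehog-related, sperm and neuropeptide lists are given under it. Low readings, near the background correction, limit sizes, and every array of a group was under the floor for ced-3, clec-190, clec-266, skr-8, skr-9, atz-1, K03D3.2, epg-2, gst-41, elo-4, ins-6, ins-33 and ins-26. On the 6 arrays ced-3, clec-190, clec-266, skr-8, skr-9, atz-1, K03D3.2 and epg-2 reached it only in isp-1 ced-4, and gst-41 and ins-6 only in isp-1. Each met the floor there through the group where it read high, so the p-values of these genes are not support apart from the filter.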

Other observations

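Markers of the intestine and yolk changed little. Of 27 tested intestine markers 3 fell (11.1%, against 18% of all tested genes) and none rose, with a median difference of -0.15. Of 6 vitellogenin and yolk receptor genes 1 rose (16.7%, near the 15.5% of all tested genes), with a median of 0.14. Genes of immunity went both ways. The lysozyme gene lys-2 rose by 0.95, the saposin-like gene spp-23 fell by 1.91, and irg-3, a gene induced by infection, fell by 2.11. Of 24 tested infection response genes 6 rose (25%, against 15.5% of all tested genes) and 2 fell (8.33%, against 18%). The number higher was 1 without isp-1 replicate 3, 2 without isp-1 ced-4 replicate 2 and 2 without isp-1 replicate 2. Without both replicates 1 it was 4, and in the fit of the 6 arrays alone 1. Of 93 nuclear hormone receptor genes 7 rose (7.53%) and 6 fell (6.45%), shares below those of all tested genes, with a median of 0.00. Without both replicates 1 it was 4 that fell.

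By chromosome, the share of tested genes that fell was 21.5% on IV and 20.1% on X, against 18% of all tested genes. On X 149 of 1217 tested genes rose, and on I 18.4% did. These shares were not tested against each other.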
